A study of Mus musculus with 44 samples.

Results

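The unfolded protein response and the integrated stress response were followed through 9 genes: Xbp1, Ern1, Atf6, Atf4, Ddit3, Trib3, Asns, Sesn2 and Eif2ak3. They were chosen by name, and all 9 were among the 14699 genes of the expression table and among the 11963 genes tested. The cells were CD11c+ MHCII high cells, a gate that holds dendritic cells (DCs), sorted from draining lymph nodes 24 h after injection. WT mice had received B16-F10-OVA melanoma cells, which express ovalbumin, and gave 20 libraries, 5 each at ZT3, ZT9, ZT15 and ZT21, where ZT is the time in hours after lights on. Mice labelled KO had received the same cells and gave 12 libraries, 3 per timepoint. WT mice injected with PBS gave another 12, also 3 per timepoint. In KO mice, a Cre recombinase driven by Clec9a, active in conventional DCs, acted on a homozygous floxed Bmal1 (Arntl). Every library came from 1 female mouse of 8 to 12 weeks kept in 12 h light and 12 h dark. No source used here says whether the WT mice carried floxed alleles.

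Cells whose endoplasmic reticulum (ER) fills with unfolded proteins respond through 3 sensors in its membrane. IRE1α, encoded by Ern1, splices Xbp1 mRNA so that it yields the transcription factor XBP1s, and Xbp1 is well known in DCs and plasma cells. ATF6 is cut in the Golgi and its released part enters the nucleus. PERK, encoded by Eif2ak3, phosphorylates the translation factor eIF2α, as other kinases do on amino acid shortage, viral RNA or haem lack. This favours translation of ATF4, which acts with partners on genes such as Ddit3 (CHOP), Trib3, Asns and Sesn2. Splicing of Xbp1, phosphorylation of eIF2α and translation of Atf4 are not seen in gene counts, and each value below is the level of mRNA over the whole gene.

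The ATF4-dependent genes are known for an element with the letters TGATGNAA. In RefSeq promoter windows of GRCm38.p6, which run from 250 bases before to 50 after the start of transcription, 2 of the 8 genes matched held it on either strand. Of all 32851 windows, 3.97% held it. Atf6 was not matched. The stretches of the genes that held it, Asns and Trib3, are shown with the match in capitals. Ddit3 and Sesn2, also named above as genes on which ATF4 acts, were matched and did not hold it. The Asns stretch is chr6:7693210-7693309, read on the minus strand, and its match begins 23 bases before the start. The Trib3 stretch is chr2:152344036-152344160, read on the minus strand, and its match lies on the opposite strand, 14 bases past the start.
Asns: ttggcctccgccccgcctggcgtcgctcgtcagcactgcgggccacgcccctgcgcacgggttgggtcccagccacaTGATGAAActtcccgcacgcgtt
Trib3: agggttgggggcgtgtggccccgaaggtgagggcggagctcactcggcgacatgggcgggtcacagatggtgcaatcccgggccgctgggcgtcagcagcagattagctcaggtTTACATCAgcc
The 3 other motifs searched were found in none of the 8 windows. They were the ER stress response element (CCAAT, 9 bases, CCACG), held by 0.119% of all windows, the XBP1 and ATF6 element TGACGTGG, held by 0.676%, and the E-box CACGTG, which the clock factors bind, held by 7.15%. Both strands were searched. Read on the opposite strand, the XBP1 and ATF6 element begins with the CCACG that ends the ER stress response element. A match or its lack describes these letters in this window.

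WT libraries were mostly less deep than the others. Reads on genes ran from 20088012 to 28962671 in WT libraries, from 29406729 to 55799162 in KO libraries and from 28003328 to 49590054 in PBS libraries, so depth cannot be told apart from the difference of WT to either other arm. The 8 genes listed for conventional DCs summed to between 14365 and 28002 CPM (reads per 1000000 reads on genes) in the 44 libraries. The highest medians among them were those of Cd74 (11648 CPM) and the MHC class II genes H2-Aa (2448), H2-Ab1 (2410) and H2-Eb1 (1970). Class II genes go with the MHCII gate, so this sum does not by itself identify conventional DCs. Arntl itself had 19.9 ± 6.91 CPM (SD, n = 12) in KO libraries, 14.8 ± 3.65 CPM (SD, n = 20) in WT and 21.7 ± 6.11 CPM (SD, n = 12) in PBS. Its mRNA was thus not lower in KO and did not separate the genotypes as labelled. Without KO ZT21 replicate 1 its KO difference from WT was 0.31 on the log2 scale (limma adjusted p = 0.0392). At ZT3, ZT9 and ZT15 alone it was 0.28 (adjusted p = 0.133). Reads over the whole gene do not check the deletion of a part of it, and KO stands for the label throughout. The KO library of ZT21 replicate 1 correlated least with its own condition (mean r = 0.933 across genes, which are not independent replicates), and the KO differences of the 9 genes are given without it as well. In sorted bulk samples, fewer cells of a type and less RNA per cell cannot be told apart.

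The 9 genes spanned a wide range of levels. Per kilobase of exon, the median over the 44 libraries was highest for Atf4 (63.9 CPM per kb), followed by Xbp1 (28.3), Sesn2 (26.1) and Ddit3 (18.0). The sensors Eif2ak3 (5.40 CPM per kb) and Atf6 (3.97) were lower, and Ern1, the enzyme that splices Xbp1 mRNA, had 0.387 CPM per kb. Among the targets, Asns had 1.58 CPM per kb and Trib3 0.180. Trib3 reached 1 CPM in 9 libraries, 6 of them KO and 3 WT, so its passing of the filter on low values rested on those arms. Relative to its own condition, the SD of a gene between libraries ran from 0.16 for Xbp1 to 0.66 for Trib3 on the log2 scale. Over the 12 conditions in order of mean, all 11 neighbouring pairs overlapped for each gene but Xbp1, for which 10 of 11 did. The plot of every library shows these levels by time and arm.

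**Figure D1:**
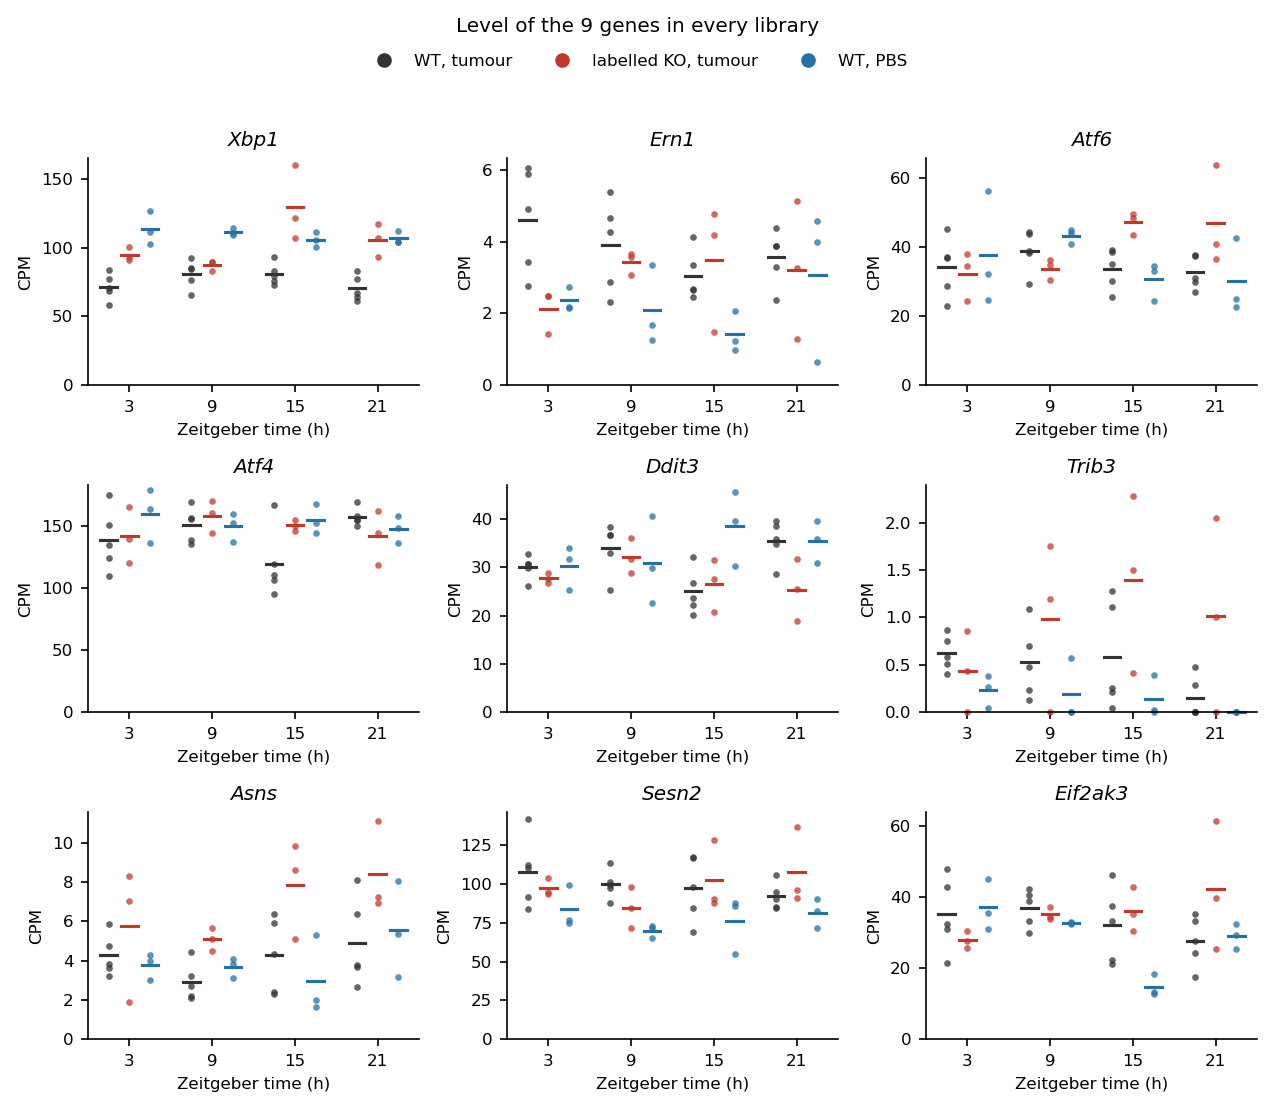
CPM (vertical axes, each from 0) of the 9 genes in each of the 44 libraries (points) at 4 Zeitgeber times (horizontal axes, hours), with the mean of each condition as a bar. WT tumour libraries are dark grey, libraries labelled KO red and PBS libraries blue; the 12 PBS libraries lie above every WT library for Xbp1, and Eif2ak3 is lowest in PBS at ZT15.

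In WT libraries, the largest F statistics for time among the 9 genes were those of Ddit3 and Atf4. Ddit3 (chr10:127290774-127296288), which encodes the pro-apoptotic factor CHOP, had 26.8, 32.2, 20.2, 23.7 and 22.2 CPM at ZT15, against 28.7, 39.7, 34.8, 36.0 and 38.5 CPM at ZT21. At ZT9 it had 36.7, 25.3, 38.4, 36.6 and 33.0 CPM, and at ZT3 29.8, 26.2, 30.7, 32.9 and 30.8 CPM. The ZT15 libraries were thus mostly lowest, but the highest of them lay within the range of each of the other timepoints. The largest difference between timepoint means was 0.51 on the log2 scale, and it did not pass (limma moderated F test, adjusted p = 0.0769). A shorter gene model of the same name lies within this locus, and Ddit3 held a fraction of a read in 4.55% of libraries.

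Atf4 (chr15:80255184-80257541) had the same lowest and highest timepoints. It had 119, 167, 95.1, 111 and 106 CPM at ZT15 and 169, 155, 155, 150.1 and 158 CPM at ZT21. Apart from replicate 2 at 167 CPM, the ZT15 libraries lay below all 5 of ZT21. The means were 119.7 ± 27.9 and 157.5 ± 7.28 CPM (SD, n = 5), with 139 ± 25.2 at ZT3 and 151 ± 13.97 at ZT9, and the F test did not pass either (limma adjusted p = 0.176). That ZT15 replicate 2 was the highest of its timepoint for both genes. Without it both passed, with adjusted p = 0.0271 for Ddit3 and 0.0298 for Atf4. Over all alternatives tried other than leaving out a library, the adjusted p of Ddit3 ran from 0.0172 with array weights to 0.262 with median-of-ratios scaling, and that of Atf4 from 0.0363 to 0.385.

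None of the 9 genes passed a test of time of day. In WT libraries, the 24 h cosinor, a fit of a daily wave, called 0 of the 9 genes, beside 0.0251% of all genes tested, and none had an unadjusted p under 0.05, against 9.20% of all genes. The F test for any difference among the 4 timepoints called 0 of 9, beside 5.28% of all genes, and 2 had an unadjusted p under 0.05, Ddit3 and Atf4. That is 22.2% of the 9, against 23.1% of all genes. The comparison of ZT9 with ZT21 at a fold of at least 2 called 0 of 9, beside 0.0669% of all genes, with none at an unadjusted p under 0.05, against 11.5% of all genes. The shares over all genes depended on single WT libraries, the filter, the form of the fit and the weighting. With genes of a mean of at least 10 CPM they were 11.2% for the F test and 0.227% for the cosinor. They were 7.82% and 0.092% with an intensity trend, and 2.85% and 0.00836% with the replicate block. For the F test the share was 11% without ZT3 replicate 3, 2.32% without ZT15 replicate 1 and 2.67% to 3.17% without ZT9 replicate 2, 3 or 4 or ZT15 replicate 3, 4 or 5, and 20.6% with array weights, which give each library a weight by its spread. For the cosinor it was 0.359% without ZT3 replicate 3, 0.125% without ZT9 replicate 5, 0.0418% without ZT9 replicate 1 and 0.00836%, or 1 gene, without ZT3 replicate 1 or 5, ZT9 replicate 2 or 3, ZT15 replicate 2, 4 or 5 or ZT21 replicate 3 or 4, and 1.23% with array weights. In KO libraries these tests called none of the 9 genes, beside 0%, 0% and 0.00836% of all genes, and in PBS libraries none, beside 0%, 0% and 0%. An unadjusted p under 0.05 was reached in KO by Atf6 in the cosinor (limma adjusted p = 0.422, peak at 17.5 h) and by Xbp1 in the F test (adjusted p = 0.481), and in PBS by Eif2ak3 in both. Such a p was reached by 10.5% and 10.3% of all genes in KO and by 7.38% and 7.44% in PBS. WT amplitudes ran from 0.10 to 0.33 on the log2 scale.

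Eif2ak3 (chr6:70844515-70905245), which encodes PERK, dipped in PBS libraries at ZT15. It had 13.2, 12.6 and 18.3 CPM there, against 35.5, 45.2 and 31.0 CPM at ZT3, 32.5, 32.8 and 32.7 CPM at ZT9 and 25.2, 29.2 and 32.4 CPM at ZT21. The 3 ZT15 libraries lay below the other 9 PBS libraries and below all 5 WT libraries of ZT15, which had 21.1, 22.2, 46.2, 37.4 and 33.2 CPM. The PBS libraries of ZT15 lay below those of WT for 4.67% of genes and below the other PBS libraries for 1.41% of genes. The level of long minus short genes, described with the covariation below, was -0.29, -0.40 and -0.17 in these 3 libraries, and its part was not tested. Its F test ranked 5th by p among the 11963 genes but did not pass (limma adjusted p = 0.323). The cosinor gave an amplitude of 0.66 on the log2 scale with a peak at 3.51 h (limma adjusted p = 0.587). Whether the course over time differed between PBS and WT was tested directly, and the interaction did not pass (limma adjusted p = 0.231).

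Differences in the course over time between arms were tested for all 9 genes. The genotype by time interaction called 0 of them, beside 0.0502% of all genes, and the treatment by time interaction 0, beside 0%. The 0.0502% was 6 genes, and 11 and 12 genes with pseudocounts of 0.1 and 1 CPM. It was 53 genes at a mean of at least 10 CPM, 78 with an intensity trend and 1071 with array weights. At an unadjusted p under 0.05, which 18.3% and 11.9% of all genes had, the genotype by time interaction had Atf6 (limma adjusted p = 0.251) and Xbp1 (adjusted p = 0.270). The treatment by time interaction had Eif2ak3 and Ddit3 (adjusted p = 0.338). Atf6 (chr1:170704674-170867771), the sensor that is released as a transcription factor, had 49.4, 48.4 and 43.4 CPM in KO libraries at ZT15, all above the 5 WT libraries of that time, whose highest was 39.1 CPM. That was so for 18.9% of all genes tested. At ZT3 and ZT9 the KO libraries ran from 24.2 to 37.8 CPM and overlapped WT. At ZT21 they had 63.6, 36.5 and 40.8 CPM, the first being replicate 1.

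Averaged over time, Xbp1 was higher in both KO and PBS than in WT libraries and Asns was higher in KO. Ern1, Sesn2 and Trib3 were lower in PBS, Trib3 having passed the filter on low values through the other arms, while Atf4, Ddit3, Atf6 and Eif2ak3 passed in neither comparison. KO against WT thus called 2 of the 9 genes higher and 0 lower, beside 23.5% and 10.2% of all genes tested. PBS against WT called 1 higher and 3 lower, beside 24.6% and 13.3%. Of these 3, Trib3 is a description only, because the filter itself favoured its lower level in PBS. The 2 of 9 higher in KO is close to the share over all genes. The median difference of the 9 genes was 0.11 in KO and -0.04 in PBS on the log2 scale, against 0.10 and 0.04 for all genes. Both comparisons share the WT libraries, and each gene is therefore given with its own values side by side. In both, p-values measure the spread between mice within a condition. The mice came from more than 1 experiment and the labels do not place them, so arm and experiment may coincide, and the part of the experiment was not tested.

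Xbp1 (chr11:5520659-5525893), the target of IRE1α splicing, separated the arms most clearly. In WT libraries it ran from 58.4 to 93.5 CPM with a median of 77.1. In PBS libraries it had 127, 111 and 103 CPM at ZT3, 110.4, 109.5 and 114 at ZT9, 101, 106 and 111 at ZT15 and 112, 104 and 104 at ZT21. All 12 PBS libraries lay above all 20 WT libraries, as they did for 1.73% of the genes tested, and all below was seen for 0.418%. In KO libraries it had 92.9, 90.9 and 100.3 CPM at ZT3, 89.6, 82.7 and 89.6 at ZT9, 107, 160.0 and 122 at ZT15 and 117, 93.1 and 107 at ZT21. Of these, 6 exceeded the highest WT library, and the KO libraries overlapped WT at ZT9 but not at the other timepoints. All KO libraries of a timepoint lay above those of WT for 8.83% of genes at ZT3, 18.9% at ZT15 and 13.6% at ZT21. All 12 KO libraries lay above all WT libraries for 0.435% of genes and below for 0.468%, and for none of the 9.

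The difference of Xbp1 was 0.53 ± 0.06 (SE) on the log2 scale in PBS (limma adjusted p = 1.07e-07) and 0.44 ± 0.07 (SE) in KO (adjusted p = 1.82e-05). It held in every alternative tried, from 0.47 to 0.55 in PBS and from 0.35 to 0.47 in KO, and was 0.42 without KO ZT21 replicate 1. The summed level of 10 immediate early and heat shock genes that rise during cell dissociation was also higher in both arms. Their summed level was 4712 to 8727 CPM in WT, 7879 to 12256 CPM in KO and 8705 to 14176 CPM in PBS, none of them at a median of 0. Of the 10, 7 were called higher and 1 lower in KO, and 8 higher and 2 lower in PBS. The heat shock gene Hspa1b was the lower one in KO, and Hspa1a and Hspa1b were lower in PBS. Within conditions, Xbp1 and this sum had r = 0.42 (rho = 0.38) over 44 libraries, which share their depth and preparation. The part of these genes in the result was not tested.

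**Figure D2:**
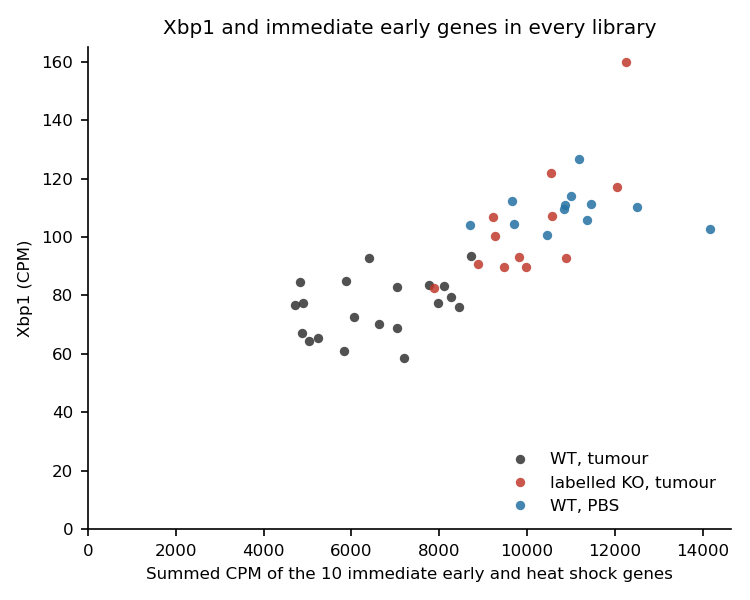
Xbp1 (CPM, vertical axis) against the summed CPM of 10 immediate early and heat shock genes (horizontal axis), with 1 point per library for WT tumour (dark grey), labelled KO tumour (red) and WT PBS (blue). WT libraries sit between 4712 and 8727 on the horizontal axis and at most at 93.5 on the vertical axis, and KO and PBS libraries lie mostly to the upper right.

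Markers of plasma cells and plasmacytoid DCs, known for high Xbp1, and of other cells also differed between arms. The plasma cell list summed to 89.1 to 158 CPM in WT, 112 to 200 CPM in KO and 126 to 171 CPM in PBS, with 4 and 3 of its 6 genes tested called higher in KO and PBS, none lower, and the defining receptor Tnfrsf17 at a median of 0. Irf4, also in the type 2 DC list, and Prdm1 had the highest medians of the plasma cell list. They were 65.2 and 49.7 CPM in WT, 71.5 and 60.3 in KO and 57.6 and 40.7 in PBS. Sdc1, Jchain, Mzb1 and Derl3 had higher medians in PBS than in WT, Sdc1 with 32.1 against 3.51 CPM. The plasmacytoid DC list summed to 164 to 258 CPM in WT, 149 to 354 CPM in KO and 271 to 420 CPM in PBS. There 3 and 5 of its 6 genes were called higher. The list of type 2 conventional DCs summed to 137 to 283 CPM in WT, 143 to 629 CPM in KO and 191 to 374 CPM in PBS, with 4 of 6 genes called higher in each. The macrophage list summed to 66.3 to 221 CPM in WT, 116 to 792 CPM in KO and 229 to 402 CPM in PBS, with 6 of 7 genes called higher in each. The 792 CPM came from KO ZT15 replicate 2, which also had the highest Xbp1, and the next KO library had 298 CPM. Without that library the KO difference of Xbp1 was 0.40. Within conditions, Xbp1 had r = 0.11 with the plasma cell sum, 0.08 with the plasmacytoid DC sum, 0.46 with the type 2 DC sum and 0.40 (rho = 0.28) with the macrophage sum (n = 44). Their part was not tested.

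Ern1 (chr11:106394650-106487852), the enzyme upstream of Xbp1, went the other way in PBS. It ran from 2.32 to 6.06 CPM in WT libraries, with a median of 3.67. PBS libraries had 2.74, 2.17 and 2.18 CPM at ZT3, 3.36, 1.27 and 1.67 at ZT9, 0.995, 2.08 and 1.24 at ZT15 and 0.648, 4.0 and 4.57 at ZT21. Of these, 8 of 12 lay below the lowest WT library, while 2 of the 3 ZT21 libraries lay within the WT range. The difference was -0.73 ± 0.18 (SE) on the log2 scale (limma adjusted p = 0.00189), and it passed in every alternative that kept the gene, which lay under a mean of 10 CPM. Within conditions Ern1 had r = -0.44 with the plasmacytoid DC sum and -0.35 with the macrophage sum (n = 44), and their part was not tested. In KO libraries Ern1 ran from 1.28 to 5.12 CPM and the difference was -0.31 with an interval from -0.65 to 0.03 (adjusted p = 0.147). It passed with array weights (adjusted p = 0.0490), and was -0.40 without KO ZT21 replicate 1 (adjusted p = 0.0514).

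Sesn2 (chr4:132492032-132510501), a stress-induced inhibitor of mTORC1 that senses leucine, was also lower in PBS. WT libraries ran from 69.3 to 142 CPM with a median of 97.9. PBS libraries had 74.8, 99.6 and 76.8 CPM at ZT3, 71.8, 65.2 and 72.7 at ZT9, 85.9, 54.8 and 87.8 at ZT15 and 90.5, 82.6 and 71.6 at ZT21. The arms overlapped, with 2 PBS libraries below the lowest WT library and 8 WT libraries above the highest PBS library. The difference was -0.35 ± 0.09 (SE) on the log2 scale (limma adjusted p = 0.00243) and passed in every alternative. In KO it was -0.02 with an interval from -0.20 to 0.16 (adjusted p = 0.879), and -0.07 without KO ZT21 replicate 1. Sums of the T cell list (259 to 603 CPM in WT, 505 to 1102 CPM in PBS) and of the plasmacytoid DC list were higher in PBS, and Sesn2 had r = -0.54 and -0.65 with them within conditions (n = 44). The NK cell sum did not overlap between the arms (16.7 to 40.9 CPM in WT, 58.0 to 363 CPM in PBS, 5 of 6 genes called higher), and Sesn2 had r = -0.54 with it. The migratory DC sum was lower (19193 to 26697 CPM in WT, 15608 to 24405 CPM in PBS, 5 of 8 genes called lower), and Sesn2 had r = 0.50 with it. All 9 T cell genes tested were called higher in PBS, and none of the 4 lists had a gene at a median of 0. Their part was not tested.

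Trib3 (chr2:152337422-152344032), a pseudokinase induced by ATF4 and CHOP that binds AKT, lay near the limit of detection. WT libraries ran from 0 to 1.27 CPM with a median of 0.436, KO libraries from 0 to 2.28 CPM with a median of 0.931 and PBS libraries from 0 to 0.573 CPM with a median of 0.0101. Summed over libraries, it had 227 reads in 20 WT, 465 in 12 KO and 67 in 12 PBS libraries, or 0.477, 1.01 and 0.145 CPM over the pooled libraries. No read was seen in 3 WT, 3 KO and 6 PBS libraries, the 3 PBS libraries of ZT21 included. PBS differed from WT by -0.55 ± 0.18 (SE) on the log2 scale (limma adjusted p = 0.0154). Since Trib3 passed the filter through WT and KO libraries, the filter itself favoured a lower level in PBS, and this difference is a description. The call was lost with all 44 libraries in 1 fit (adjusted p = 0.0656). Within conditions Trib3 had r = 0.42 (rho = 0.48) with the sum of type 1 conventional DC genes, which was 719.9 to 1024 CPM in WT and 926 to 1441 CPM in PBS, and -0.33 with the plasmacytoid DC sum (n = 44). Their part was not tested. KO libraries spread too widely for a call, at 0.45 with an interval from -0.07 to 0.97 (adjusted p = 0.173), and is a description too, since 3 WT libraries alone would not have met the filter. It was 0.42 without KO ZT21 replicate 1, 0.62 without KO ZT21 replicate 3 and 0.70 with array weights.

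Asns (chr6:7675169-7693254), asparagine synthetase, a classical target of ATF4, was higher in KO libraries. WT libraries ran from 2.11 to 8.13 CPM with a median of 3.73. KO libraries had 1.91, 7.05 and 8.33 CPM at ZT3, 5.08, 5.69 and 4.48 at ZT9, 5.13, 9.85 and 8.60 at ZT15 and 11.1, 6.96 and 7.23 at ZT21. Of these, 4 exceeded the highest WT library, 1 lay below the lowest, and at ZT9 all 3 lay above the 5 WT libraries, as for 9.21% of all genes. The difference was 0.65 ± 0.19 (SE) on the log2 scale (limma adjusted p = 0.00823), and 0.60 without KO ZT21 replicate 1, the library with the highest value. PBS libraries ran from 1.65 to 8.07 CPM and differed from WT by -0.04 with an interval from -0.40 to 0.32 (adjusted p = 0.892). The Langerhans cell list summed to 52.8 to 91.0 CPM in WT and 68.1 to 139 CPM in KO, with 2 of 3 genes called higher, and had r = 0.56 (rho = 0.54) with Asns within conditions (n = 44). Its part was not tested.

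Atf4, the regulator of Asns and Trib3, passed in neither comparison. It differed from WT by 0.07 with an interval from -0.08 to 0.23 in KO (limma adjusted p = 0.482) and by 0.12, from -0.03 to 0.27, in PBS (adjusted p = 0.195). For Ddit3 the differences were -0.15, from -0.32 to 0.02, in KO (adjusted p = 0.180) and 0.12, from -0.06 to 0.30, in PBS (adjusted p = 0.321). Ddit3 passed in KO with median-of-ratios scaling (adjusted p = 0.0470). The 2 sensors with no call were Atf6, at 0.18 (from -0.03 to 0.39) in KO and -0.01 (from -0.25 to 0.23) in PBS, and Eif2ak3, at 0.11 (from -0.17 to 0.39) and -0.25 (from -0.50 to 0.01). Eif2ak3 passed in PBS with median-of-ratios scaling (adjusted p = 0.0366). Without KO ZT21 replicate 1, the highest library for Atf6 and Eif2ak3, the KO differences were 0.12 for Atf6, 0.03 for Eif2ak3, 0.11 for Atf4 and -0.10 for Ddit3. The intervals of Eif2ak3 in both arms and of Atf6 in KO take in differences as large as that called for Sesn2, and the other 5 do not.

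**Figure D3:**
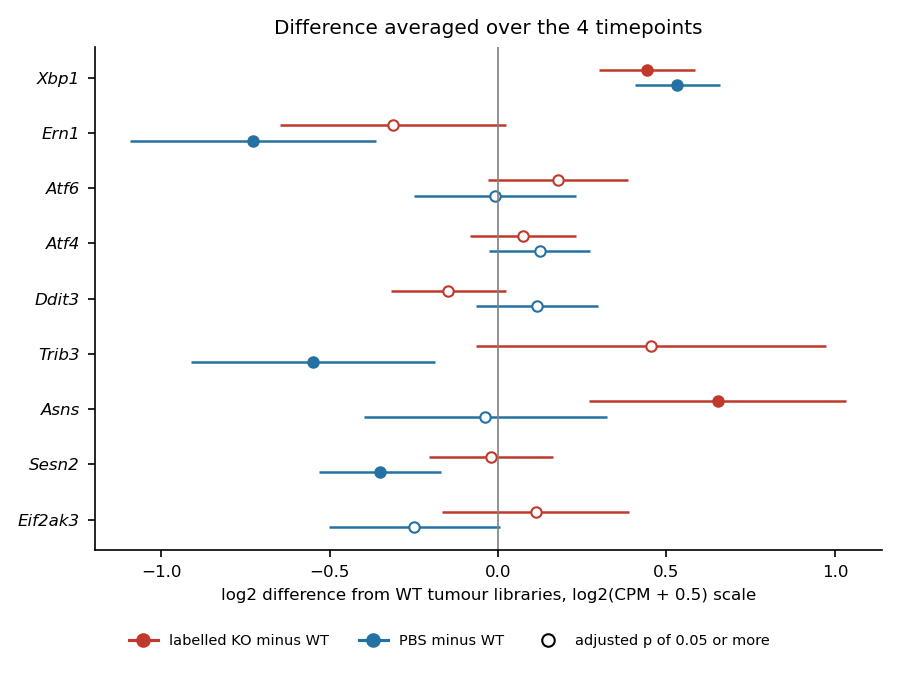
Difference from WT tumour libraries averaged over the 4 timepoints (horizontal axis, log2 scale) for each of the 9 genes, with points for the limma estimate and lines for its 95% interval, in red for libraries labelled KO and in blue for PBS. Filled points passed at an adjusted p under 0.05; Xbp1 is filled on the right for both, Asns for KO, and Ern1, Trib3 and Sesn2 on the left for PBS. The points of Trib3 are descriptions, since it passed the filter on low values through WT and KO libraries.

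The other genes of these pathways were read from 7 lists that hold 128 genes, 119 of them tested. Most ER chaperones and folding enzymes rose. In KO libraries 13 of 18 were called higher and 1 lower, with a median difference of 0.30 on the log2 scale against 0.10 for all genes. In PBS libraries 11 of 18 were called higher and 1 lower, with a median of 0.36 against 0.04. Hspa5, which encodes BiP, the chief chaperone of the ER and a main target of ATF6, had 358 ± 32.5 CPM (SD, n = 20) in WT, 621 ± 114 CPM (SD, n = 12) in KO and 566 ± 41.3 CPM (SD, n = 12) in PBS. All 12 libraries of KO and all 12 of PBS lay above the highest WT library, at 415 CPM. That was so for 0.435% of all genes tested in KO and for 1.73% in PBS. Its difference was 0.78 ± 0.05 (SE) in KO (limma adjusted p = 1.69e-11) and 0.66 ± 0.05 (SE) in PBS (2.76e-11). The protein disulphide isomerase Pdia6 rose by 0.51 in KO and by 0.63 in PBS.

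Genes of ER-associated degradation and translocation were called higher in 9 of 23 and lower in none in KO (median 0.12), and higher in 7 and lower in 3 in PBS (median 0.11). Of all genes tested, 23.5% were called higher and 10.2% lower in KO (median 0.10), and 24.6% and 13.3% in PBS (median 0.04). The KO median and the PBS count of lower calls of this list are close to those over all genes. Spcs2, a subunit of the signal peptidase, had 118 ± 14.5 CPM in WT, 172 ± 24.8 in KO and 181 ± 28.4 in PBS (SD, n = 20, 12 and 12). All KO and all PBS libraries exceeded every WT library, as for 0.435% and 1.73% of all genes tested. The translocon partner Ssr2 rose by 0.44 in KO and 0.59 in PBS. Of the other sensors and processing factors, 3 of 10 were called higher in each arm and none lower, with medians of 0.11 and 0.04. These higher calls and medians are close to those over all genes. Among them were the membrane-bound factors Creb3 (0.27 in KO, 0.16 in PBS) and Creb3l1 (0.78 and 1.16). Creb3l1 lay at 0.869 CPM on average in WT. The PBS call of Creb3 was lost with median-of-ratios scaling (adjusted p = 0.0802), and the KO call of Creb3l1 with array weights (adjusted p = 0.123) and at ZT3, ZT9 and ZT15 alone (adjusted p = 0.0537).

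Factors around eIF2 were called higher in 6 of 14 in KO and 7 of 14 in PBS, none lower, with medians of 0.21 and 0.17. Of all genes, 23.5% and 24.6% were called higher and 10.2% and 13.3% lower, with medians of 0.10 and 0.04. Ppp1r15a, which encodes GADD34, the stress-induced subunit that directs eIF2α dephosphorylation, had 789 ± 146 CPM in WT, 1230 ± 121 in KO and 1129 ± 158 in PBS (SD, n = 20, 12 and 12). It rose by 0.66 ± 0.09 (SE) in KO and 0.53 ± 0.09 (SE) in PBS, and it is also an immediate early gene. The eIF2B subunit Eif2b3 rose by 0.77 and 0.78 and the eIF2 subunit Eif2s2 by 0.33 and 0.45. The KO call of Eif2s2 was lost with median-of-ratios scaling (adjusted p = 0.0596).

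Of the ATF4 partners and stress targets, 3 of 18 were called higher and 1 lower in KO (median 0.11), against 23.5% and 10.2% of all genes and their median of 0.10. In PBS 4 were called higher and 3 lower (median -0.02), against 24.6% and 13.3% and a median of 0.04. Atf3, a stress-induced factor that is itself an immediate early gene, had 107 ± 26.4 CPM in WT, 187 ± 43.9 in KO and 187 ± 36.2 in PBS (SD, n = 20, 12 and 12) and rose by 0.81 and 0.82. Vegfa, the angiogenic growth factor, rose by 1.39 and 1.68 from 2.00 CPM in WT.

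Genes of amino acid synthesis and transport under ATF4 were called higher in 7 of 16 and lower in 2 in KO (median 0.22), and higher in 10 and lower in 2 in PBS (median 0.34). Of all genes, 23.5% were called higher and 10.2% lower in KO (median 0.10), and 24.6% and 13.3% in PBS (median 0.04). The serine synthesis enzymes Psat1 and Phgdh rose by 1.00 and 0.49 in KO and by 1.12 and 0.74 in PBS, a gain of Psat1 from 8.35 ± 2.68 CPM (SD, n = 20) to 17.7 ± 7.10 and 18.2 ± 3.73 CPM (SD, n = 12). Slc7a5, the light chain of the LAT1 transporter of large neutral amino acids, differed between the comparisons in sign. It had 25.3 ± 4.73 CPM (SD, n = 20) in WT, 51.5 ± 9.59 in KO and 21.6 ± 5.09 in PBS (SD, n = 12). It rose by 1.01 ± 0.09 (SE) in KO (limma adjusted p = 3.13e-09), with 11 of 12 libraries above every WT library, and fell by 0.23 in PBS (adjusted p = 0.0243). All 12 KO libraries lay above every WT library for 0.435% of all genes tested, and the share for 11 of 12 was not counted. The PBS call was lost without PBS ZT3 replicate 3, ZT9 replicate 2, ZT15 replicate 1 or ZT21 replicate 1 (adjusted p from 0.0502 to 0.0620). At ZT3, ZT9 and ZT15 alone the PBS difference of Slc7a5 was -0.39 (limma adjusted p = 0.000544).

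The last list held cytosolic aminoacyl-tRNA synthetases, which load amino acids on tRNAs and include many ATF4 targets, and the tRNA exporter Xpot. It was called higher in 10 of 20 genes and lower in 1 in both KO (median 0.24) and PBS (median 0.18), and Xpot passed in neither. The enzymes for arginine, Rars, for valine, Vars, and for glutamate and proline, Eprs, rose by 0.49, 0.59 and 0.42 in KO and by 0.49, 0.51 and 0.55 in PBS. The counts of all 7 lists stand beside the 23.5% and 24.6% of all genes called higher and the 10.2% and 13.3% called lower. Depth, immediate early genes and the plasma cell, plasmacytoid DC, type 2 DC and macrophage lists moved with both arms as given for Xbp1, and 4 and 5 of 6 NK cell genes were called higher in KO and PBS. In PBS, 7 of 8 type 1 conventional DC genes were also called higher and 1 lower, and all 9 T cell genes were called higher. The level of long minus short genes had a median of 0.15 in WT, -0.03 in KO and -0.16 in PBS. Their part in the lists was not tested.

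**Figure D4:**
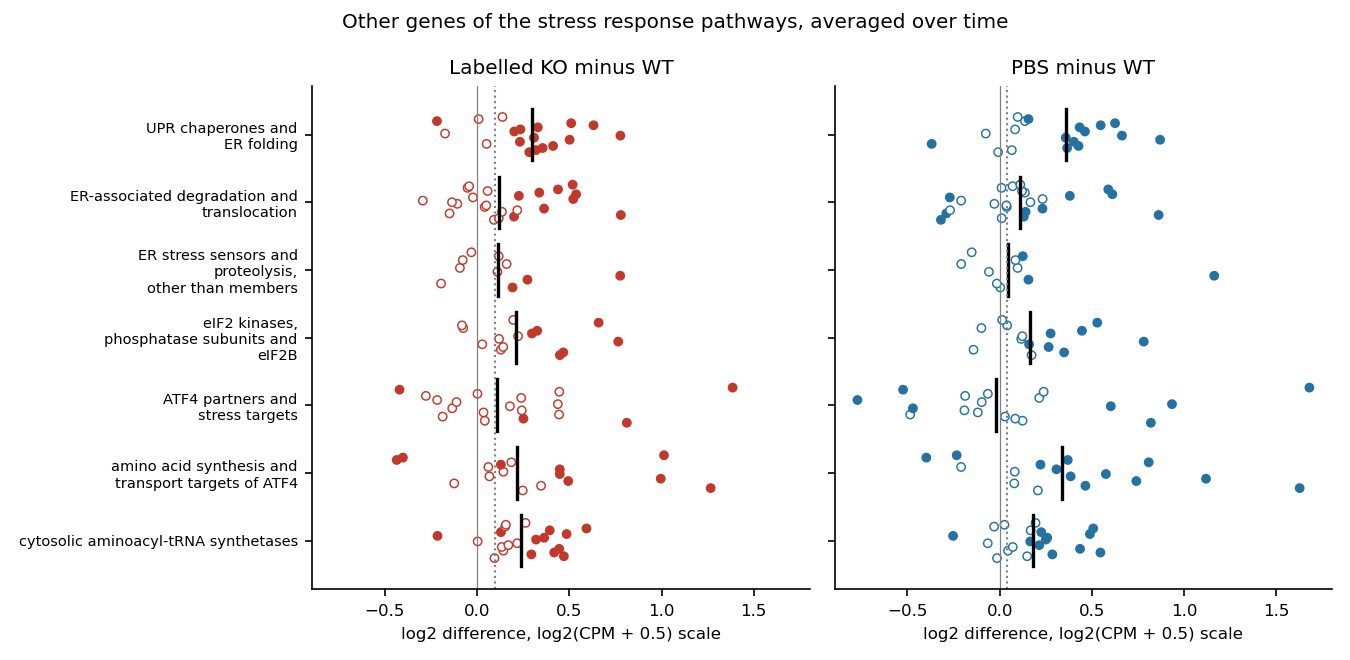
Difference from WT averaged over time (horizontal axes, log2 scale) for the other pathway genes tested, with 1 point per gene, grouped by list (rows), for libraries labelled KO (left) and PBS (right). Filled points passed at an adjusted p under 0.05, black bars are list medians and dotted lines the median of all genes (0.10 and 0.04); the chaperone list has its median at 0.30 and 0.36.

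Few genes of these lists differed by time of day. The WT cosinor called none in any of the 7 lists by limma, and the F test called Slc7a5 and Cebpb, which were named after their values were seen, or 2 of 119 beside 5.28% of all genes. The count of list genes with an unadjusted cosinor p under 0.05 was 3 of 16 in the amino acid list and at most 1 in each of the others, against 9.20% of all genes. The genes with the smallest cosinor p of each list were Ssr3, Sel1l, Phgdh, Slc7a5, Atf5, Jdp2, Gars, Hars, Rtcb, Dab2ip, Eif2b1, Eif2ak2, Pdia4 and Fkbp2. Their amplitudes ran from 0.12 for Ssr3 to 0.35 for Dab2ip on the log2 scale, and their adjusted p from 0.412 for Ssr3 to 0.696 for Fkbp2 (limma). Phgdh passed with array weights (adjusted p = 0.0475). Slc7a5 fell from 29.6 CPM at ZT3 over 26.3 and 25.5 to 19.7 CPM at ZT21 (limma adjusted p = 0.0458). The call was lost in 16 of 20 fits that left out a single WT library, with an adjusted p of up to 0.105 without ZT21 replicate 2. Cebpb, a partner of ATF4, had 23.1, 12.8, 23.9 and 15.7 CPM from ZT3 to ZT21 (adjusted p = 0.0172). In the same WT libraries the macrophage sum was 108.8 to 158.8 CPM at ZT3, 66.3 to 101 at ZT9, 130.3 to 221 at ZT15 and 99.0 to 123.5 at ZT21. The immediate early and heat shock sum ran from 6623 to 7969 CPM at ZT3, 4712 to 6403 at ZT9, 6058 to 8727 at ZT15 and 4885 to 7041 at ZT21. The macrophage ranges of ZT3 and ZT15 lay above that of ZT9, as did the ZT3 range of the other sum, whose ZT15 range overlapped it. Their part in both calls was not tested.

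Libraries of a condition also differed from each other in a shared way. After the mean of each condition was removed, Atf6, Sesn2 and Eif2ak3 rose and fell together over the 44 libraries. Atf6 and Sesn2 had r = 0.65 (rho = 0.66), with r = 0.89 in WT, 0.37 in KO and 0.56 in PBS. Sesn2 and Eif2ak3 had r = 0.62 (rho = 0.53) and Atf6 and Eif2ak3 r = 0.61 (rho = 0.59), and without the 2 libraries farthest out the 3 values were 0.67, 0.59 and 0.63. Between Atf4 and its targets r was lower. Atf4 had r = 0.25 with Ddit3, -0.26 with Asns, -0.30 with Trib3 and -0.44 with Sesn2, and Ern1 and Xbp1 had r = -0.12. All 36 pairs were computed, and the values describe libraries that share a preparation.

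The same libraries differed in transcript length. The level of the 25% of genes with the longest exons, at least 6784 bases, minus that of the 25% with the shortest, at most 2806 bases, was taken per library on the log2 scale, a measure chosen after seeing the data. Within conditions it had r = 0.81 with Atf6, 0.74 with Sesn2, 0.69 with Eif2ak3 and 0.51 with Ern1, against -0.24 with Atf4 and -0.30 with Ddit3 (n = 44). The value of Atf6 was above that of 98.0% of all genes. Without the 2 libraries farthest out, Atf6, Sesn2 and Eif2ak3 kept r = 0.77, 0.70 and 0.59. Between arms, the measure ran from -0.28 to 0.43 in WT with a median of 0.15, from -0.24 to 0.40 in KO with a median of -0.03 and from -0.40 to 0.08 in PBS with a median of -0.16. Ern1 and Sesn2, lower in PBS, thus had it moving with them, and its part was not tested. Exons cover 9231 bases of Atf6, 8173 of Ern1, 6026 of Eif2ak3 and 3475 of Sesn2.

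**Figure D5:**
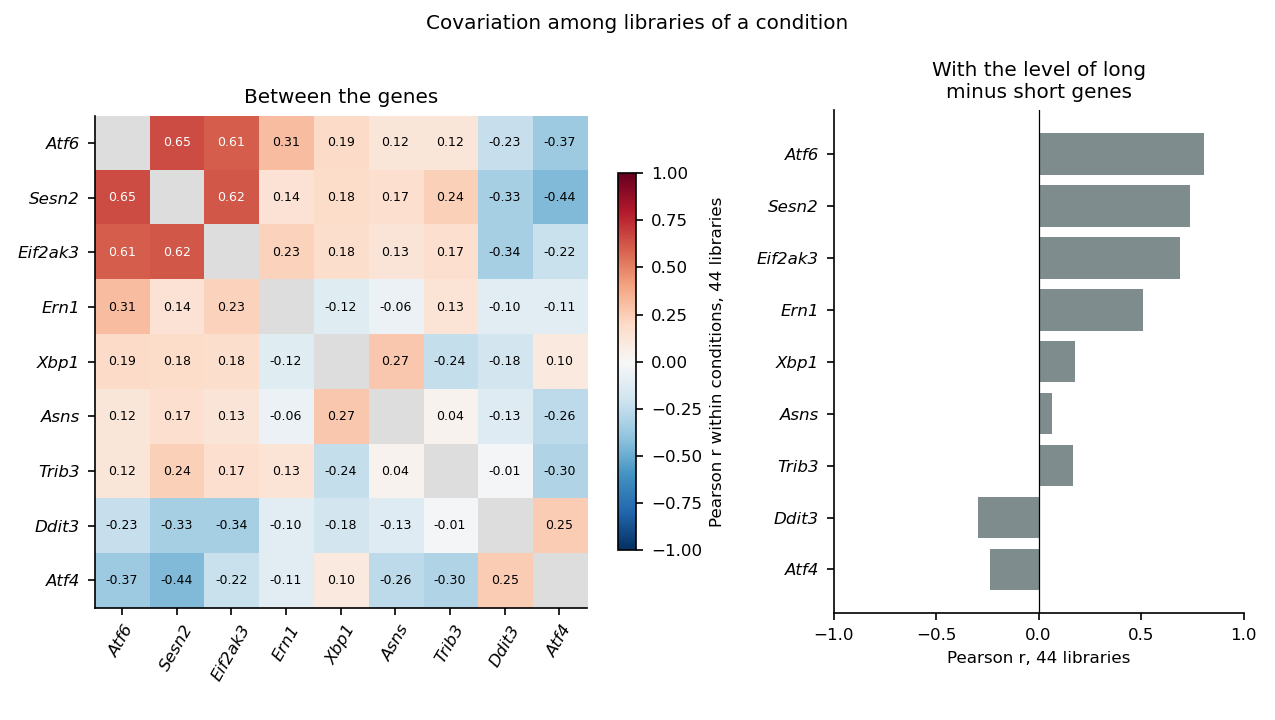
Left, Pearson r between the 9 genes over 44 libraries after removing the mean of each condition, on a colour scale from -1 (blue) to 1 (red). Right, r of each gene with the level of long minus short genes (horizontal axis); Atf6, Sesn2 and Eif2ak3 form the red block at the upper left and have the longest bars.

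For each gene, the genes most like it were those with the highest r within conditions over the 44 libraries. Atf6 went with Ly75, the DC endocytic receptor DEC-205 (r = 0.84), and Stat3 (0.84). Sesn2 went with Tnfrsf11a, which encodes RANK (0.83), and Pde4dip (0.80), and Eif2ak3 with Ccar2 (0.76) and Uggt1, the folding sensor of ER glycoproteins (0.74). Ern1 went with Osbpl2 (0.72) and Hs1bp3 (0.71). On the other side, Atf4 went with the splicing factor Srsf3 (0.76) and Taf1d (0.75), and Ddit3 with Pglyrp1 (0.66) and Dkkl1 (0.65). Asns went with Zfand4 (0.67) and Cobl (0.62), Xbp1 with Cav1 (0.62) and Amz1 (0.60) and Trib3 with Psmd5 (0.56) and Herc4 (0.56). Some of these pairs did not hold in PBS libraries alone. There r was 0.08 for Xbp1 and Cav1, 0.13 for Eif2ak3 and Ccar2 and -0.04 for Trib3 and Herc4. In WT alone and in KO alone, no pair had r below the 0.35 of Trib3 and Herc4 in WT. The pairs were picked for their r over these same libraries, so the values within an arm are no independent check. Cav1 had a mean of 0.854 CPM.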

How the data were processed

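RNA of sorted cells was made into cDNA and libraries with SMART-Seq v4 and Nextera XT, which do not mark strand, and read in single reads of 50 bases. The authors aligned them with STAR (2.7.0) to mm10, counted genes with HTSeq (0.9.1), normalised for library size with edgeR and deposited CPM of 14699 genes, summing to 1000000 per library. Groups and timepoints came from the labels. There were 0 pairs of identical libraries. The value of 1 read, the commonest value of a library below 3 CPM, gave depth. Within 0.01 read, 88.7% to 91.4% of values per library were whole, too few for a count test.

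Genes that reached 1 CPM in 5 or more of the 44 libraries were tested with limma 3.58.1 (R 4.3.3) on log2(CPM + 0.5), which understates changes of low genes, with 1 mean per condition or a 24 h cosinor. Fits held the libraries of the arms compared, and p-values were adjusted by Benjamini-Hochberg over all genes tested. A call is an adjusted p under 0.05, and for ZT9 against ZT21 also a fold of at least 2. The test was checked on simulated data. The 9 genes and all lists were chosen with earlier results of these data known. Beside these 9, each list gave the 2 genes with the smallest p for KO, PBS and the WT cosinor, each given for the kind of comparison that named it. Coordinates and exon lengths are those of GENCODE M21 (GRCm38).

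Alternatives were pseudocounts of 1 and 0.1 CPM, median-of-ratios scaling, no filter, a mean of at least 10 CPM, an intensity trend, weights for each library (array weights), a replicate block, all 44 libraries in 1 fit, no fold threshold, each library left out and, added after seeing the data, ZT3, ZT9 and ZT15 alone.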

Additional observations from a re-analysis of the deposited data

How the results depend on the processing

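Each result for the 9 genes, mostly a count of calls, was paired with each alternative, with library leave-outs set apart. It stayed within 1.5 times its value in 106 such pairs and changed in 6. Most comparisons had 0 calls in the main fit, and a 0 that stayed 0 is among the 106. So is the change from 2 to 3 KO calls with median-of-ratios scaling. With genes of a mean of at least 10 CPM, the calls were 1 in KO against WT, 2 in PBS against WT, where Ern1, Trib3 and Asns were not tested, and 1 in the WT F test, beside 41.4%, 42.3% and 11.2% of the 7928 genes left. With array weights, whose estimation stopped short of its tolerance in some fits, they were 4 in KO and 2 in the WT F test, beside 39.1% and 20.6% of all genes. Replicate numbers did not pair libraries (deviations of same-numbered libraries had a mean r of -0.01 to 0.00, range -0.24 to 0.19). With the replicate block, the KO calls fell from 2 to 1, Asns being lost (0.49, adjusted p = 0.0759), and the PBS calls of Trib3 (-0.36, adjusted p = 0.150) and Slc7a5 (-0.24, adjusted p = 0.0630) and the WT F test call of Slc7a5 (adjusted p = 0.0945) were lost. Leaving out single libraries gave 0 to 2 calls in the WT F test, 1 without WT ZT9 replicate 2 and 2 without WT ZT15 replicate 2, beside 3.17% and 7.72% of all genes, and moved no other count by over 1.5 times. The KO calls were 3 without KO ZT21 replicate 3, beside 33.3% of all genes. The PBS calls were 5 without WT ZT3 replicate 3, beside 40.5%.

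Differences that changed sign were those with no call. In KO, Atf4 was -0.019 with median-of-ratios scaling, Eif2ak3 -0.021 with array weights and -0.037 at ZT3, ZT9 and ZT15 alone, and Sesn2 0.016 with the replicate block and -0.067 to 0.0069 when single libraries were left out. In PBS, Atf6 was 0.059 with the replicate block, 0.041 at ZT3, ZT9 and ZT15 alone and -0.091 to 0.056 when single libraries were left out, and Asns 0.061 with array weights and -0.15 to 0.041. For these changes the cause was not tested. Depth limits Trib3, with 67 to 465 reads per arm, and Ern1 and Asns lie at a few CPM. None of the 36 groups of 5 WT libraries, 1 per gene and timepoint, held an outlier by Dixon's criterion, which chance would give in about 1 of 20. KO and PBS conditions, with 3 libraries each, were not examined this way.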
